A study of Homo sapiens with 6 samples.

Results

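The genes described here are the ERBB receptors EGFR, ERBB2, ERBB3 and ERBB4, the EGF-family ligands AREG, EREG, TGFA, HBEGF and EPGN, and ERRFI1, an inhibitor of EGFR. They were chosen by name, and each was read from a probe set whose annotation gives that gene symbol and no other. Of the 10 genes, 9 had such a probe set, 1 each, among 18377 genes tested. AREG had none under this rule and was not analysed here. RNA came from MCF10A-HER2/3 cells, which are MCF10A cells, a non-tumorigenic human mammary epithelial line, carrying introduced HER2 (ERBB2) and HER3 (ERBB3). The cells were kept in 3D culture for 15 days in a medium that held EGF, insulin, cholera toxin, hydrocortisone and horse serum. A doxycycline-inducible lentiviral vector expressed SHP2 miR1, SHP2 miR2 or CTRL miR, a control, and doxycycline was given to all 3 groups from the day after seeding and refreshed every 2 days. Each group had 2 Affymetrix HuGene-1_0-st-v1 arrays. SHP2 is the tyrosine phosphatase encoded by PTPN11, and the comparisons ask which transcripts differ when it is reduced. What drives the introduced receptors, and whether each group came from 1 cell population or several, is not given in the sources used here.

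ERBB receptors are tyrosine kinases that pair when a ligand binds. EGFR binds TGFA, AREG, EREG, HBEGF and EPGN, which are made as membrane-anchored precursors and released by sheddases. ERBB2 has no known ligand and serves as a partner, and ERBB3, whose kinase is impaired, binds neuregulins and couples to PI3K. SHP2 acts below these receptors to sustain RAS-ERK signalling, and ERK in turn induces several EGFR ligands and feedback inhibitors in epithelial cells.

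All values are log2 probe set values. Differences, their SE and adjusted p-values come from 1 limma fit over all genes, and a gene passed, or was called, at an adjusted p under 0.05. The 6 array medians lay between 5.23 and 5.35, replicates correlated across genes at r = 0.985 to 0.986, and no replicate columns were identical. Nothing in the labels says that replicates were separate cultures, so the p-values rest on differences between arrays that may be purely technical. PTPN11 was at 6.04 and 5.71 on the SHP2 miR1 arrays and 6.90 and 7.28 on the SHP2 miR2 arrays, against 7.96 and 8.44 on the CTRL miR arrays, so the target was lowest with SHP2 miR1. Its difference from CTRL miR was -1.72 on average (limma adjusted p = 0.00184) and -2.32 for SHP2 miR1 (0.000548), but for SHP2 miR2 it was -1.11 and did not pass (0.0813). All 5 basal and all 5 luminal mammary markers measured had means above 4.76, the 40th percentile of all probe sets, which serves below as the mark of a dim probe set. Of markers of other cells, fibroblast PDGFRA and LUM, endothelial CDH5 and KDR, leukocyte PTPRC and LYZ, and adipocyte ADIPOQ were dim, while 5 of 7, 2 of 4, 2 of 4 and 2 of 3 markers of these cells were not. Among all these markers, the basal keratin KRT14 and endothelial PECAM1 rose on average over both SHP2 miRs (by 1.10 and 0.60) and endothelial TEK fell by 1.38. The 4 endothelial markers summed to log2 levels of 6.94 to 7.02 under SHP2 miR1 and 7.18 to 7.28 under SHP2 miR2, against 7.36 to 7.41 under CTRL miR. The 4 leukocyte markers also summed lower, to 8.90 to 9.06 under SHP2 miR1 and 9.38 to 9.55 under SHP2 miR2, against 9.57 to 9.62 under CTRL miR. The basal sum was higher, at 12.74 to 12.79 under SHP2 miR1 and 12.72 to 12.87 under SHP2 miR2, against 12.40 to 12.41 under CTRL miR, as was the luminal sum, at 12.15 to 12.22 and 12.15 to 12.24 under these SHP2 miRs, against 11.92 to 11.94 under CTRL miR. In fibroblast markers SHP2 miR1 alone was lower (8.99 to 9.06, with 9.17 to 9.26 under SHP2 miR2, against 9.14 to 9.19 under CTRL miR), and in adipocyte markers SHP2 miR1 was higher and SHP2 miR2 lower (6.54 to 6.56 and 6.21 to 6.23, against 6.30 to 6.36 under CTRL miR). These sums are of unlogged values, so the brightest markers weigh most in them. The median average differences were 0.21 for the endothelial, 0.070 for the leukocyte, 0.12 for the basal and 0.27 for the luminal markers. For the fibroblast and adipocyte markers they were 0.0035 and 0.044. The typical endothelial or leukocyte marker was thus not lower. The part of these markers in the results below was not tested.

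Promoter sequences are shown for EREG and TGFA, the ligand genes that fell on average, and for EPGN, which lies beside EREG. Sequences are from RefSeq (GRCh38.p14), and 9 of the 10 genes had an entry, with 11 entries in all because EGFR and TGFA have alternative starts. The 250 bases before the start of each follow, 5′ to 3′ on the gene's strand. Capitals mark TATAAA, the TATA box, and GGGCGG, the GC box, on either strand. EREG lies on the plus strand at chr4:74364895-74365144, EPGN on the plus strand at chr4:74308220-74308469, and the upstream start of TGFA on the minus strand at chr2:70553827-70554076.
EREG: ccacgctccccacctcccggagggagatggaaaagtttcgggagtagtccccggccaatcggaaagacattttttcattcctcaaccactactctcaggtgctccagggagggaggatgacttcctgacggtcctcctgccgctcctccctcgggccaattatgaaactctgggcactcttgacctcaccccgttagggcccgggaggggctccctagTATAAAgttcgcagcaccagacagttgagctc
EPGN: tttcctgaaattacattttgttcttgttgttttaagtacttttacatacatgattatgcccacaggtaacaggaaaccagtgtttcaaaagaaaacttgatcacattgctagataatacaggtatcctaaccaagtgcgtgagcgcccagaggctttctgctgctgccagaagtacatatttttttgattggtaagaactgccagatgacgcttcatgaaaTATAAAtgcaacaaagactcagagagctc
TGFA: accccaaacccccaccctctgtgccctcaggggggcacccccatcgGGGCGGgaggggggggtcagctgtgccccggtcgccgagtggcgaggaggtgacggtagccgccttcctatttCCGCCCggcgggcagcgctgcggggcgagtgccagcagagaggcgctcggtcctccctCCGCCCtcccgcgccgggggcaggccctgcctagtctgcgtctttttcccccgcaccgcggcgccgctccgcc
EREG and EPGN each hold 1 TATAAA, which begins 32 bases before the start in EREG and 29 bases before it in EPGN. The window of TGFA holds no TATAAA and 3 GC boxes. Its G and C content is 75.6%, against 58.0% in EREG, 38.0% in EPGN and a median of 58.0% over all 35116 promoter entries. The window of the downstream start of TGFA, not shown, holds neither motif, and its G and C content is 64.0%.

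Over the 11 entries, TATAAA was found in 4, against 10.7% of all entries, and GGGCGG in 6, against 42.6%. The AP-1 site TGANTCA was found in the downstream start of EGFR and in ERBB2, 2 of 11 against 6.57% of all entries. The ETS core CGGAAG was found in ERBB2 and HBEGF, against 16.5%, and the cAMP response element TGACGTCA in AREG alone among these entries, against 1.65%. The TEAD site GGAATG was in the downstream start of EGFR and in EREG, against 11.9%. Neither the E-box CACGTG (6.34% of all entries) nor the forkhead site GTAAACA (2.98%) occurred in the 11. Every motif was searched on both strands, and no match of one motif overlapped a match of another. No one motif was found in the windows of all of ERBB2, EREG, EPGN and TGFA, and ERBB3 had no entry.

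ERBB3 fell furthest among the receptors. The probe set of this neuregulin receptor read 8.09 and 8.05 under SHP2 miR1 and 8.48 and 8.42 under SHP2 miR2, against 9.67 and 9.54 under CTRL miR. The groups did not overlap, and every array of SHP2 miR1 lay below every array of SHP2 miR2. Averaged over both SHP2 miRs, the log2 difference of ERBB3 was -1.35 (SE 0.13, 2.54-fold, limma adjusted p = 0.000959), and this held with any array left out. It fell by 1.54 with SHP2 miR1 (SE 0.15, adjusted p = 0.000617) and by 1.16 with SHP2 miR2 (SE 0.15, adjusted p = 0.0143). The SHP2 miR2 call was lost without either SHP2 miR2 array or either control, at adjusted p-values of 0.117 to 0.175, with differences between -1.22 and -1.10. Whether the probe set reads introduced ERBB3 along with endogenous ERBB3 is not given in the sources used here. These values therefore do not say which copy was lower. In these bulk cultures, fewer cells with a transcript and less transcript per cell cannot be told apart.

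ERBB2, the partner receptor without a known ligand, fell with SHP2 miR1. It read 9.02 and 8.98 under SHP2 miR1 and 9.59 and 9.46 under SHP2 miR2, against 9.66 and 9.61 under CTRL miR. The SHP2 miR2 arrays lay close to the controls, and the SHP2 miR1 arrays stood clear of both other groups. ERBB2 fell by 0.64 with SHP2 miR1 (SE 0.15, 1.56-fold, adjusted p = 0.0310), while the difference with SHP2 miR2 was -0.12 (95% interval -0.44 to 0.21, adjusted p = 0.819). The direct difference, SHP2 miR1 minus SHP2 miR2, was -0.52 (95% interval -0.85 to -0.19) and did not pass over all genes (adjusted p = 0.145), although it did with a mean-variance trend (0.00632). The average difference of -0.38 did not pass either (SE 0.13, adjusted p = 0.136). The SHP2 miR1 call was lost without either SHP2 miR1 array or either control, at adjusted p-values of 0.0807 to 0.149. As with ERBB3, whether introduced and endogenous ERBB2 are read together is not given.

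EGFR and ERBB4 did not pass in any of the 4 comparisons. EGFR, the receptor for the EGF in the medium, read 7.85 and 7.99 under SHP2 miR1 and 7.88 and 7.78 under SHP2 miR2, against 7.98 and 7.82 under CTRL miR. The 3 groups overlapped, and the average difference was -0.024 with a 95% interval of -0.32 to 0.27 (adjusted p = 0.941). Its sign turned under quantile normalization (0.051). ERBB4, a second neuregulin receptor, read 4.24 and 4.26 under SHP2 miR1 and 4.23 and 4.28 under SHP2 miR2, against 4.45 and 3.96 under CTRL miR. Its mean over the 6 arrays, 4.24, was dim, and both controls lay outside the range of the 4 SHP2 miR arrays, on opposite sides of it. The average difference of ERBB4 was 0.048 (95% interval -0.31 to 0.40, adjusted p = 0.898), with the sign turned under quantile normalization (-0.033).

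**Figure D1:**
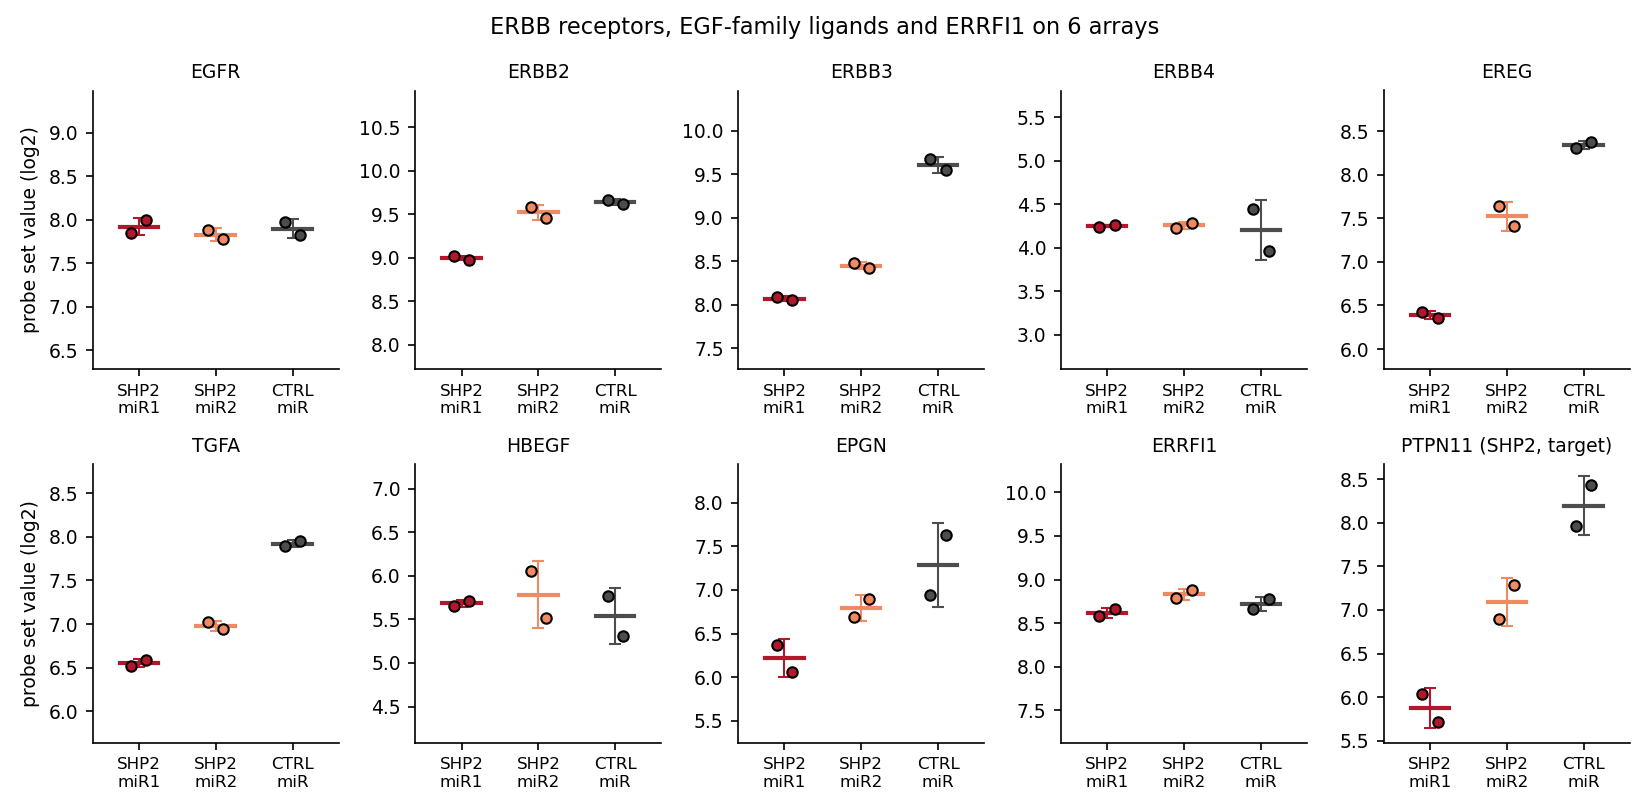
Probe set values (log2) of the 9 genes and of PTPN11 on the 6 arrays, with SHP2 miR1, SHP2 miR2 and CTRL miR from left to right. Points are arrays, thick bars are group means and thin bars the SD (n = 2 each). Every panel spans the same range of log2 units. ERBB2, ERBB3, EREG, TGFA, EPGN and PTPN11 step upward from SHP2 miR1 through SHP2 miR2 to CTRL miR without overlap of arrays.

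Among the ligands, EREG and TGFA fell. EREG, epiregulin, activates EGFR and ERBB4, and it had the widest range of the 9 genes over the arrays, 2.01. It read 6.42 and 6.36 under SHP2 miR1 and 7.64 and 7.41 under SHP2 miR2, against 8.31 and 8.37 under CTRL miR. The 3 groups formed separate steps, with SHP2 miR2 between the others. The average difference was a fall by 1.38 (SE 0.13, 2.61-fold, adjusted p = 0.00106), which held with any array left out.

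EREG fell by 1.95 with SHP2 miR1 (SE 0.15, 3.86-fold, adjusted p = 0.000305). For SHP2 miR2 it differed from CTRL miR by -0.82 (SE 0.15, 1.76-fold), which missed the threshold over all genes (adjusted p = 0.0683) although both arrays lay below both controls. SHP2 miR1 minus SHP2 miR2 was -1.13 (SE 0.15, 95% interval -1.48 to -0.79, adjusted p = 0.0337), the 1 call among the 9 genes in that comparison. With any array left out this call was lost (adjusted p up to 0.207), the differences lying between -1.25 and -1.02.

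TGFA, a ligand of EGFR that mammary epithelial cells make for themselves, read 6.52 and 6.58 under SHP2 miR1 and 7.02 and 6.94 under SHP2 miR2, against 7.89 and 7.95 under CTRL miR. As for EREG, the groups were separate, with a smaller step between the SHP2 miRs. It fell by 1.16 on average (SE 0.12, 2.23-fold, adjusted p = 0.00179), and this held with any array left out. It fell by 1.37 with SHP2 miR1 (SE 0.14, adjusted p = 0.00108) and by 0.94 with SHP2 miR2 (SE 0.14, adjusted p = 0.0335). The SHP2 miR2 call was lost with any array left out, at adjusted p-values of up to 0.243. The SHP2 miRs differed by -0.43 (95% interval -0.75 to -0.10, adjusted p = 0.196), SHP2 miR1 being the lower.

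EPGN, epigen, is an EGFR ligand whose gene lies next to EREG on chromosome 4. It read 6.37 and 6.06 under SHP2 miR1 and 6.69 and 6.90 under SHP2 miR2, against 6.94 and 7.63 under CTRL miR. The groups did not overlap, but the controls had an SD of 0.48 and SHP2 miR2 replicate 2 lay close below control replicate 1. EPGN fell by 1.07 with SHP2 miR1 (SE 0.23, adjusted p = 0.0258), a call lost without either SHP2 miR1 array or control replicate 2 (adjusted p-values of 0.0561 to 0.170). Without control replicate 2 the difference was -0.73. The average difference was -0.78 (SE 0.20, adjusted p = 0.0656). It ranged from -1.13 to -0.44 with 1 array left out, the smallest without control replicate 2, and passed with dim genes left out of the fit (adjusted p = 0.0451) or with a mean-variance trend (0.0100). With SHP2 miR2 it was -0.49 (adjusted p = 0.477).

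In RefSeq's order of protein-coding genes, EPGN, EREG, AREG and BTC stand next to each other on chromosome 4. BTC, betacellulin, which activates EGFR and ERBB4, read 4.92 and 5.11 under SHP2 miR1 and 4.83 and 4.74 under SHP2 miR2, against 5.23 and 5.45 under CTRL miR. All 4 SHP2 miR arrays lay below both controls, with an average difference of -0.44 that did not pass (SE 0.14, adjusted p = 0.115). Of the 3 measured genes of this row, EREG therefore passed on average, and EPGN and BTC had differences of the same sign that did not.

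HBEGF, heparin-binding EGF-like growth factor, read 5.66 and 5.71 under SHP2 miR1 and 6.05 and 5.51 under SHP2 miR2, against 5.77 and 5.31 under CTRL miR. The groups overlapped, and the average difference of 0.19 had a 95% interval of -0.23 to 0.62 (adjusted p = 0.599). Without control replicate 2 its sign turned, at -0.032. ERRFI1, also called MIG6, binds the EGFR kinase domain and inhibits it. It read 8.58 and 8.66 under SHP2 miR1 and 8.79 and 8.87 under SHP2 miR2, against 8.66 and 8.78 under CTRL miR. Here too the groups overlapped. The average difference was 0.0068 (95% interval -0.28 to 0.29, adjusted p = 0.985), and its sign turned with centring on array medians (-0.031).

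**Figure D2:**
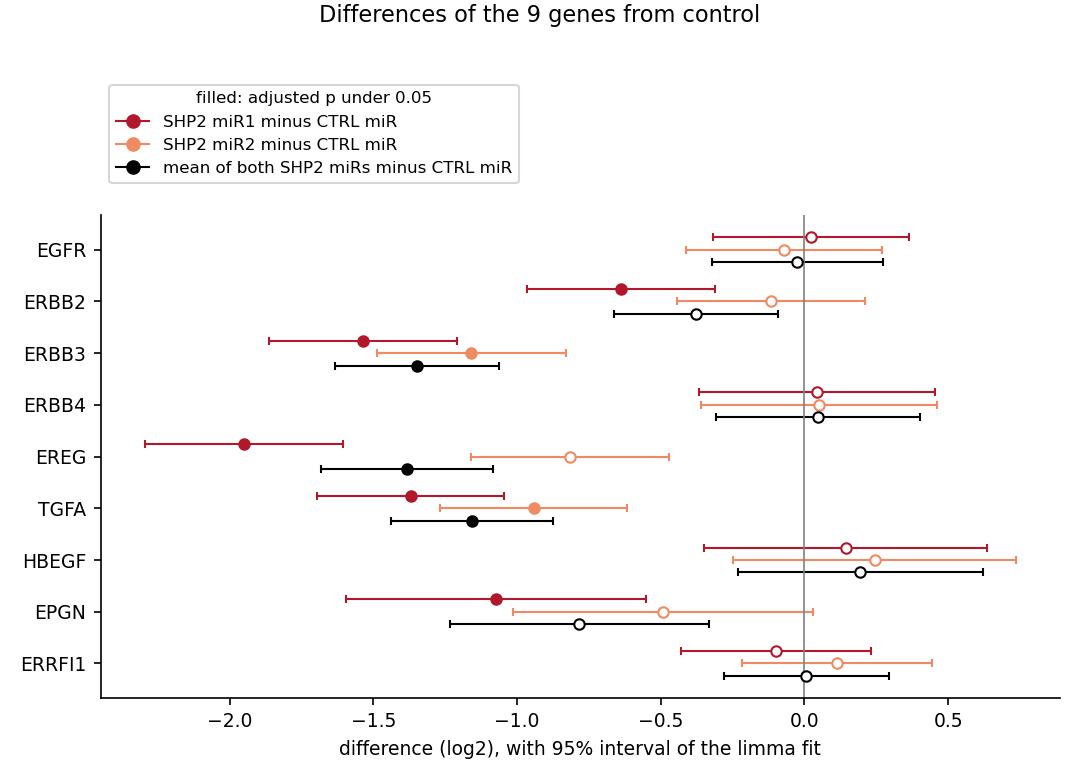
Differences from CTRL miR (log2, x axis) of the 9 genes for SHP2 miR1, SHP2 miR2 and their mean, with 95% intervals of the limma fit; filled points have an adjusted p under 0.05 over all genes. ERBB3 and TGFA are filled in all 3 rows, EREG for SHP2 miR1 and the mean, and ERBB2 and EPGN for SHP2 miR1, while the intervals of EGFR, ERBB4, HBEGF and ERRFI1 cross 0.

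Counted together, 3 of the 9 genes fell on average over both SHP2 miRs, against 2.67% of all genes tested (4.2% called in either direction, 1.53% higher). With SHP2 miR1, 5 of 9 fell, against 5.94% of all genes (8.6% in either direction, 2.66% higher), and with SHP2 miR2, 2 of 9, against 0.18% (0.37% in either direction). In SHP2 miR1 minus SHP2 miR2, 1 of 9 was lower, against 0.152% (0.19% in either direction). None of the 9 rose in these limma fits, and none was higher at an unadjusted p under 0.05. At that unadjusted level 5, 5, 3 and 5 of the 9 were lower in the 4 comparisons in the order given, against 12.6%, 16%, 5.88% and 8.72% of all genes lower and 8.31%, 12.1%, 5.14% and 8.94% higher. In either direction these shares of all genes came to 20.9%, 28.1%, 11% and 17.7%.

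The median difference of the 9 genes was -0.38 on average. It was -0.64 for SHP2 miR1 and -0.12 for SHP2 miR2. Over all genes the medians of these 3 differences were 0.016, 0.038 and -0.0099. Both SHP2 miR comparisons use the same 2 controls, so their values are not independent of each other. The average count stayed at 3 with any array left out. The SHP2 miR1 count was 3 without either SHP2 miR1 array or without control replicate 2. The SHP2 miR2 count was 0 without either SHP2 miR2 array or either control and 1 without either SHP2 miR1 array.

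All 4 SHP2 miR arrays lay below both controls for 5 of the 9 genes, ERBB2, ERBB3, EREG, TGFA and EPGN, as they did for 13.6% of all genes. The opposite arrangement, found in 12.6% of all genes, occurred in 0 of the 9. The same 5 genes also ran in steps, with both SHP2 miR1 arrays below both SHP2 miR2 arrays and these below both controls, an order found in 8.08% of all genes. The reverse order was found in 4.3%, and in 0 of the 9. PTPN11 itself ran upward from SHP2 miR1 through SHP2 miR2 to CTRL miR, as these 5 genes did. The step to the controls was narrow in ERBB2, from 9.59 (SHP2 miR2 replicate 1) to 9.61 (control replicate 2). It was narrow in EPGN too, from 6.90 (SHP2 miR2 replicate 2) to 6.94 (control replicate 1). Among the 9, ERBB3 and TGFA had the most similar patterns, with a root mean square difference over the 6 arrays of 0.11 after centring each gene on its own mean. EREG differed from TGFA by 0.31 and from ERBB3 by 0.32 on this measure.

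The same measure was run over the other genes tested for each of the 3 genes that fell on average. Nearest to ERBB3 were MIR4697HG (0.068), MCF2 (0.085) and ITPR1 (0.10). MCF2, which encodes a guanine nucleotide exchange factor, was dim, and ITPR1 encodes a calcium release channel of the endoplasmic reticulum. Nearest to EREG were KDELR3 (0.079), ITGA5 (0.079) and ANGPTL4 (0.12), of which ITGA5 is the fibronectin receptor subunit and ANGPTL4 a secreted lipase inhibitor. Nearest to TGFA were STXBP5 (0.057), TPST1 (0.067) and STK17A (0.068). These are the smallest of many differences over 6 arrays and describe the pattern only.

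**Figure D3:**
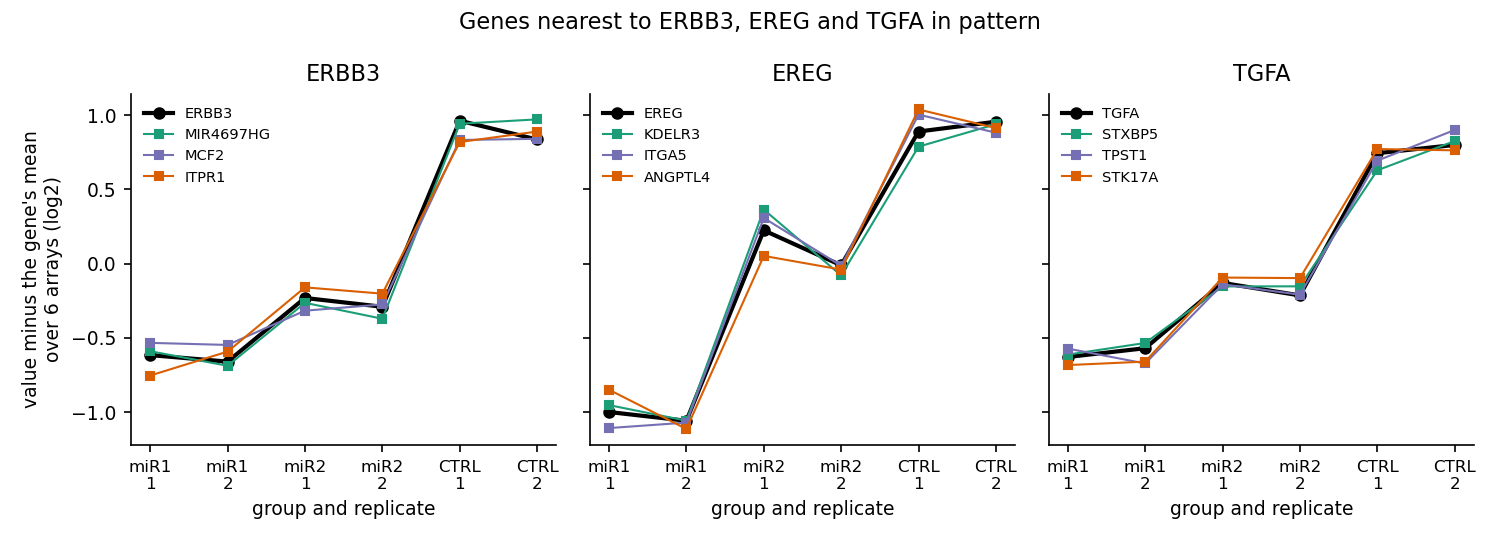
Values minus each gene's own mean over the 6 arrays (log2, y axis) for ERBB3, EREG and TGFA, black, and for the 3 genes nearest to each; the arrays run from SHP2 miR1 through SHP2 miR2 to CTRL miR. The SHP2 miR2 arrays of EREG sit on either side of its mean, while those of ERBB3 and TGFA sit below theirs.

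The genes around the receptors were read from 6 lists, with counts for the average over both SHP2 miRs unless stated. The lists were written with earlier results of these data known, so their counts are a description and not independent evidence. With SHP2 miR2 alone, 0 members passed in each list but the last, against 0.37% of all genes. No other EGF-family ligand passed. Of EGF, BTC, NRG1, NRG2, NRG3 and NRG4, 0 of 6 were called in limma on average, and the list median was -0.027. At an unadjusted p under 0.05, 1 was lower and 1 higher, shares near those of all genes at that level (12.6% lower, 8.31% higher). The members of smallest p were BTC, described above, and NRG1, a neuregulin that binds ERBB3 and ERBB4, at 0.33 (SE 0.13, adjusted p = 0.184). Endogenous EGF was dim, at a control mean of 3.74 and an average difference of -0.057 (adjusted p = 0.848). NRG1, NRG3 and NRG4 were dim as well, at control means of 4.08, 4.25 and 4.71, which limits what their values show.

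Of 9 sheddases and their regulators, 1 fell and 0 rose, against 2.67% and 1.53% of all genes, with a median of -0.044. At an unadjusted p under 0.05, 4 of the 9 were lower, against 12.6% of all genes, and 0 higher, against 8.31%. The called gene was ADAM12, a metalloprotease, which fell by 0.76 (SE 0.16, adjusted p = 0.0318). It missed the threshold without SHP2 miR1 replicate 1, either SHP2 miR2 array or either control (up to 0.146).

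Of 15 measured genes of receptor turnover, 1 rose and 1 fell, against 1.53% and 2.67% of all genes, with a median of -0.22. At an unadjusted p under 0.05, 4 of the 15 were lower and 2 higher, against 12.6% and 8.31%. LRIG3, of the family of LRIG transmembrane proteins that includes the ERBB inhibitor LRIG1, rose by 0.92 (SE 0.15, 1.89-fold, adjusted p = 0.0105), and missed the threshold without control replicate 1 (0.0812). CBL, the ubiquitin ligase that marks EGFR for degradation, fell by 0.68 (SE 0.14, adjusted p = 0.0353), a call lost with any array left out (up to 0.311). Of 12 measured adaptors and PI3K subunits, 1 fell and 0 rose, against 2.67% and 1.53% of all genes, with a median of -0.18. At an unadjusted p under 0.05, 3 of the 12 were lower, against 12.6% of all genes, and 0 higher, against 8.31%. PIK3CB, a catalytic PI3K subunit, fell by 0.62 (SE 0.14, adjusted p = 0.0414), again lost with any array left out (up to 0.326).

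Of 9 transcription factors that act on ERBB genes, 1 fell and 1 rose, against 2.67% and 1.53% of all genes, with a median of 0.058. At an unadjusted p under 0.05, 1 was lower and 2 higher, against 12.6% and 8.31%. ETV4, an ETS factor that binds the ERBB2 promoter, fell by 0.95 (SE 0.19, adjusted p = 0.0286), lost without replicate 2 of either SHP2 miR or either control (up to 0.221). TFAP2C, an AP-2 factor that activates ERBB2 in breast cancer lines, rose by 0.77 (SE 0.17, adjusted p = 0.0379), lost with an array left out except SHP2 miR1 replicate 1 (up to 0.348).

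Among 12 transcripts that report ERK activity below the receptors, 9 fell on average and 0 rose, against 2.67% and 1.53% of all genes. The list median was -0.79. At an unadjusted p under 0.05, 12 were lower and 0 higher, against 12.6% and 8.31% of all genes. SPRY4, a feedback inhibitor, fell by 1.84 (SE 0.13) and held with any array left out, and the list count dropped to 3 with control replicate 1 left out and to 1 with control replicate 2 left out. The phosphatase genes DUSP4 and DUSP6 fell by 1.21 and 1.06 and missed the threshold without control replicate 2 (0.0558 and 0.126). IER3 fell by 0.88 and missed it without either control (up to 0.109). With SHP2 miR1, 11 of the 12 fell, against 5.94% of all genes. With SHP2 miR2 only 1 did, against 0.18%, which was SPRY4 (a fall by 1.29, limma adjusted p = 0.00972). At an unadjusted p under 0.05, 8 were lower with SHP2 miR2, against 5.88%. ERRFI1, which ERK also induces, had an average difference of 0.0068, as given above. SPRY2, which was listed with receptor turnover and not here, had an average difference of -0.28 and did not pass (limma adjusted p = 0.436).

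**Figure D4:**
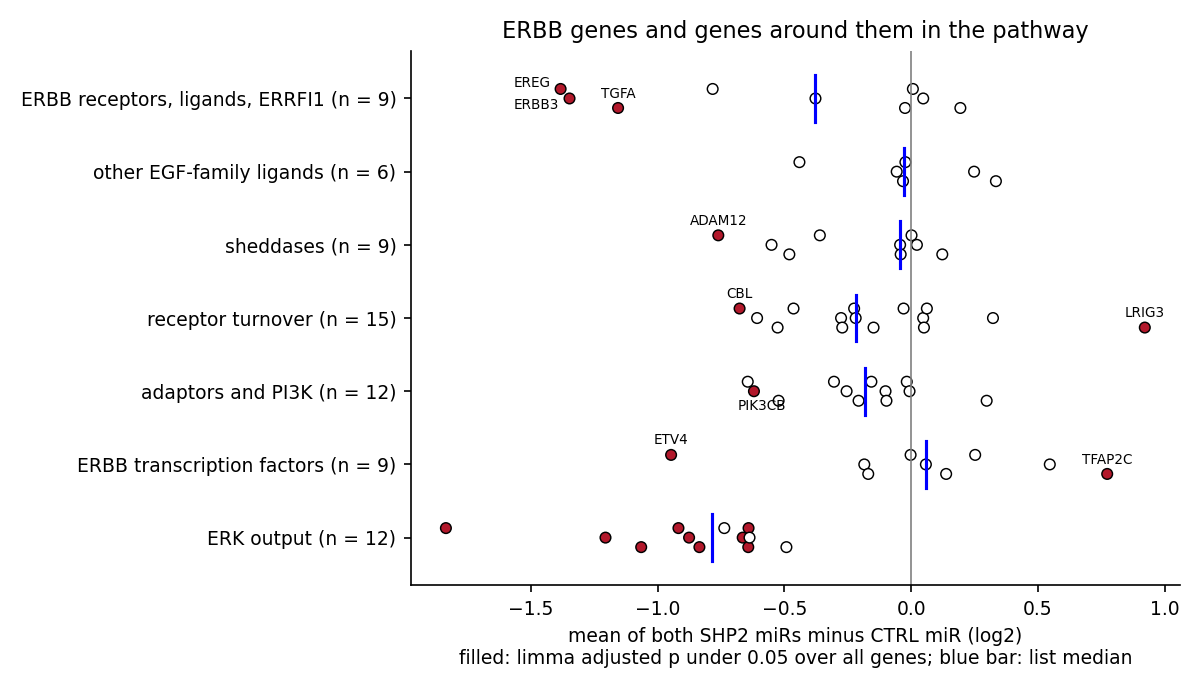
Average difference of both SHP2 miRs from CTRL miR (log2, x axis) for the 9 genes and for 6 lists of genes around them; each point is a gene, filled points have a limma adjusted p under 0.05 over all genes, and the blue bar is the list median. The filled points of the 9 genes, EREG, ERBB3 and TGFA, lie among the larger falls of the ERK output list, while the other lists hold at most 2 filled points each.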

How the data were processed

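The 6 arrays measured total RNA, labelled from 100 ng per array. The authors deposited 1 processed value per probe set and array, on a log2 scale inferred from their range. R 2.10 and oligo 1.8 were used, per the submitters' processing notes. How the background was corrected, values normalized and probes summarised, and on which genome build, is not given in the sources used here. Groups and replicate numbers came from the sample titles.

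The platform annotation gave a single symbol for 19310 of 28869 probe sets. The probe set with the highest mean was kept for each of 18377 genes. A linear model with 3 groups was fitted to all genes on 6 arrays in R 4.3.3, using lmFit and eBayes of limma 3.58.1 (3 residual and 6.10 prior degrees of freedom). P-values were two-sided, adjusted by the Benjamini-Hochberg method over all genes, with a threshold of 0.05. The genes and lists, the rule for naming genes (up to 4 called members of a list by smallest p, otherwise 2, and 3 genes by likeness) and the tests were chosen with earlier results of these data known. Alternatives changed the prior, filter, normalization, probe set rule, weights, samples and pairing, and left out each array. The number of arrays limits the precision.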

Additional observations from a re-analysis of the deposited data

Results flagged for a closer look

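The difference between the SHP2 miRs passed the threshold for EREG among the 9 genes, with SHP2 miR1 minus SHP2 miR2 at -1.13 (limma adjusted p = 0.0337). Both SHP2 miR1 arrays lay below both SHP2 miR2 arrays. PTPN11 differed in the same direction, by -1.21 (adjusted p = 0.0645), and the part of that difference in the EREG result was not tested. Groups of 2 arrays are too small for a search for outlying arrays.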

How the results depend on the processing

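The average falls of ERBB3, EREG and TGFA kept their sign and their call under all 15 alternatives, between -1.41 and -1.28, -1.44 and -1.32, and -1.19 and -1.09. A mean-variance trend raised the counts of genes called to 1793 on average, 2786 for SHP2 miR1, 367 for SHP2 miR2 and 446 between the SHP2 miRs, from 771, 1581, 68 and 35. With it ERBB2 (adjusted p = 0.00613) and EPGN (0.0100) also passed on average, EREG passed for SHP2 miR2 (0.00481), as it did without dim genes (0.0385), and ERBB2 passed between the SHP2 miRs (0.00632). PTPN11 passed for SHP2 miR2 with the trend (0.00400) and without dim genes (0.0495). Without dim genes 154 and 95 genes were called for SHP2 miR2 and between the SHP2 miRs, and with every probe set tested 39 and 12. The count between the SHP2 miRs was 69 with centring on array medians, 55 with array weights and 12 with only the groups compared. Centring also took the share of higher calls for SHP2 miR1 to 19.7%, against 30.9%. With the replicate number as a block, 37 genes were called for SHP2 miR2 and 12 between the SHP2 miRs. TGFA for SHP2 miR2 (adjusted p = 0.0632) and EREG between the SHP2 miRs (0.0658) lost their calls there, and no other call among the 9 genes changed. Deviations of same-numbered arrays correlated at 0.013, 0.067 and 0.14, so the numbers were not taken as pairs. Both calls were also lost with only the groups compared (0.0566 and 0.0795) and with every probe set tested (0.0710 and 0.0787). ERBB2 for SHP2 miR1 lost its call with every probe set tested (0.0543) but kept it with only the groups compared (0.0438). With 1 array left out the counts were 108 to 512, 269 to 1308, 0 to 60 and 0 to 15. The 0 for SHP2 miR2 came in limma without either control, with 2108 and 1503 genes at an unadjusted p under 0.05, and the 0 between the SHP2 miRs without SHP2 miR2 replicate 1, with 2671. The cause of these changes was not tested. Signs turned in 24 values of EGFR, ERBB4, HBEGF and ERRFI1, none with an adjusted p below 0.616. Under quantile normalization these were 0.051 for EGFR and -0.033 for ERBB4 on average and -0.085 for ERBB4 with SHP2 miR1. Under centring they were -0.031 for ERRFI1 on average, and -0.058 for EGFR and -0.038 for ERBB4 with SHP2 miR1. With 1 array left out the average ranged from -0.10 to 0.053 for EGFR, -0.19 to 0.29 for ERBB4, -0.032 to 0.42 for HBEGF and -0.052 to 0.066 for ERRFI1. For SHP2 miR1 it ranged from -0.055 to 0.10 for EGFR, -0.20 to 0.29 for ERBB4 and -0.082 to 0.37 for HBEGF. For SHP2 miR2 the ranges were -0.15 to 0.0063 for EGFR, -0.19 to 0.29 for ERBB4 and -0.026 to 0.52 for HBEGF, and between the SHP2 miRs -0.035 to 0.019 for ERBB4 and -0.37 to 0.17 for HBEGF. ERBB4 is limited by its dim probe set, and where a group kept 1 array, its spread was taken from the groups with 2.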
